A study of Mus musculus with 6 samples.

Results

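The cytosolic ribosome of mouse white fat was examined through the mRNAs of its proteins, counted as full-length cDNA in 3 mice kept in the cold and 3 control mice. The members are the protein-coding genes of the GENCODE M21 annotation whose symbol is Rpl or Rps followed by a digit, together with Rpsa, Rplp0, Rplp1 and Rplp2, without Rps6k kinases and without names that end in -ps. The rule finds 86 genes among 23492 genes with at least 1 read, and all 86 have at least 1 read. One of them, Rps19bp1, carries a matching symbol but encodes a protein that binds Rps19 and is not part of the ribosome. The filter on low counts left 83 of the 86 for testing, and the 3 that did not pass are the paralogs Rpl10l, Rpl3l and Rpl39l.

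The cold mice had been housed alone at 4 °C for 24 h, and the labels do not say whether the control mice were alone. All were male C57BL/6N mice aged 20 weeks from housing at 22 to 24 °C with no genetic change named, and the tissue was the epididymal white fat pad, although the title of the series speaks of brown fat. Poly-A RNA was copied to cDNA without PCR and read on a nanopore device, 100 ng per library. The cold mice are numbered 7, 12 and 16 and the control mice (ctrl) 5, 6 and 10. Each mouse is 1 sample. Total reads were 726283 to 1194134 in cold libraries and 939107 to 1341592 in ctrl libraries. The 9 adipocyte markers all had reads, with summed levels of 49100 to 52848 CPM (reads per 1000000 gene reads) in cold mice and 48045 to 52830 CPM in ctrl mice. The 9 epithelial markers, genes of the epididymis and other epithelia, summed to 234 to 491 CPM in cold mice and 23.1 to 75.7 CPM in ctrl mice.

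A ribosome joins a small subunit, which reads the mRNA, to a large subunit, which links the amino acids, and each subunit carries 1 copy of nearly every one of its proteins, named Rps for the small and Rpl for the large. The mRNAs of these proteins are short, abundant and begin with a run of pyrimidines (the 5′ terminal oligopyrimidine or TOP motif), through which the mTORC1 kinase and the protein Larp1 control how fast they are translated. Many of the genes carry small nucleolar RNA (snoRNA) genes in their introns, and mammalian genomes hold many processed copies of ribosomal protein mRNAs. Levels in bulk tissue do not separate fewer cells of a type from less RNA per cell.

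The start regions of the members are shown first. RefSeq promoters (GRCm38.p6, from 250 bases before to 50 after a gene's start) matched 66 of the 86 genes by symbol, with 78 promoters. A run of at least 5 pyrimidines that begins with C and starts within 10 bases of the start stood on the sense strand of 53.8% of the members' promoters, against 30.7% of all 32851 promoters of the table. On either strand it stood in 70.5% of the members' promoters and 59.2% of all. The run covered the first transcribed base itself in 24.4% of the members' promoters, against 7.69% of all. A run that only ends on this base was counted too, as in Rpl39 below. The share is therefore not that of mRNAs that begin with the run. The letters CTTTC, which can lie inside such a run, began within 10 bases of the start in 20.5% of members' promoters and 3.10% of all on the sense strand, and in 21.8% and 6.05% on either strand. The letters CCGGAA, the core bound by ETS family factors, were anywhere in the window in 30.8% of the members' promoters and 8.27% of all on the sense strand, and in 47.4% and 14.9% on either strand. TATAAA, the TATA box, lay 20 to 45 bases before the start in 1.28% of the members' promoters, against 2.14% of all on the sense strand, and in 1.28% and 2.75% on either strand. Over the 20150 promoters of protein-coding genes, sense strand shares were 31.2% (run), 2.85% (CTTTC), 10.7% (CCGGAA) and 2.58% (TATAAA). On either strand they were 60.3%, 5.42%, 19.2% and 3.14%. These matches describe letters in the window and no binding was measured.

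The following 6 stretches show the start region, 20 bases on either side of it, of the members with the most reads whose run covers the first transcribed base. Capitals mark the pyrimidine run, and every line reads 5′ to 3′ on the strand of the gene. They lie at chr2:180257359-180257398 (Rps21, plus strand), chr9:114982720-114982759 (Rps27rt, minus), chrX:37085203-37085242 (Rpl39, minus), chr7:109519175-109519214 (Rpl27a, plus), chr14:24490658-24490697 (Rps24, plus) and chr7:3704021-3704060 (Rps9, plus) of GRCm38.p6. The run is 20 bases long in Rpl27a and 5 to 8 bases long in the others.
Rps21: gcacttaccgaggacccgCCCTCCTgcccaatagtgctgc
Rps27rt: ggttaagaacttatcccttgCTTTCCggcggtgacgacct
Rpl39: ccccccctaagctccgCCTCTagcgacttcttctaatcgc
Rpl27a: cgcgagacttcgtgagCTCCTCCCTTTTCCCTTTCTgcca
Rps24: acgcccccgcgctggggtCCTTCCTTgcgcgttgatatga
Rps9: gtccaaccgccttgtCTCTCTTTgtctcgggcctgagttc

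Ribosomal protein mRNAs made up about 1 read in every 20. Together the 86 genes held 5.72%, 5.89% and 5.44% of gene reads in cold mice 7, 12 and 16, against 5.20%, 4.99% and 5.62% in ctrl mice 5, 6 and 10. The ranges overlap, with ctrl 10 above cold 16. The summed level was 56847 ± 2278 CPM in cold mice and 52690 ± 3205 CPM in ctrl mice (SD, n = 3 each). Large subunit genes summed to 33683 ± 1547 CPM in the cold and 31164 ± 1615 CPM in ctrl, and small subunit genes to 23112 ± 833 CPM in the cold and 21482 ± 1589 CPM in ctrl. The 10 genes with the most reads held 24.4% of all member reads, so that the level was spread over many genes. Tested members had a median of 639 CPM, against 32.4 CPM over all 9772 genes tested.

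Per length of transcript, levels differed widely between members, also between mRNAs of like length. If each read stands for 1 full-length cDNA, CPM alone compares molecules, and division by length moves short mRNAs up. In mean CPM the order differed, with Rps23 (1315), Rpl11 (1184) and Rpl32 (1171) above Rps21 (915), Rps28 (905) and Rpl38 (819). Rpl41, which encodes the smallest protein of the ribosome, averaged 4283 CPM per kilobase over the 6 mice. It was followed by Rps29 (3945 CPM per kilobase), a zinc-binding small subunit protein, and Rplp1 (3395 CPM per kilobase), part of the acidic stalk that recruits translation factors. Rps27rt, Rps28, Rps21, Rpl38 and Rpl37a came next, between 2042 and 2362 CPM per kilobase. These 8 mRNAs are 373 to 565 bases long, while Rpl36, also short at 383 bases, had 812 CPM per kilobase. The near-identical copy Rpl36-ps12 held 54.6% of the reads of its pair with Rpl36, so the low value of Rpl36 alone is uncertain. Rpl36a, at 509 bases and with 7.2% of the reads of its pair on the copy Rpl36a-ps1, had 771 CPM per kilobase. The first 3 genes overlap one another in their values over the mice, and so do the neighbours Rps27rt, Rps28, Rps21 and Rpl38. The median was 611 CPM per kilobase over the 49 large subunit genes tested and 804 CPM per kilobase over the 33 small subunit genes. Without division by length the medians were 607 CPM for the large and 677 CPM for the small subunit. The 80% of genes between the 10th and the 90th percentile spanned 246 to 1668 CPM per kilobase in the large and 177 to 2187 CPM per kilobase in the small subunit. Lengths are those of the annotated transcripts weighted by reads, so a gene whose counted transcripts are annotated with long ends, such as Rps15a (107 CPM per kilobase, but 451 to 573 CPM in cold mice and 505 to 559 CPM in ctrl mice), ranks low on this scale.

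Paralogs restricted to other tissues had hardly any reads. Rpl3l, the form of Rpl3 known from heart and skeletal muscle, had 4 reads in the 6 libraries against 2338 for Rpl3. Rpl10l, the testis form of Rpl10, had 3 reads and Rpl39l, the testis form of Rpl39, had 5 against 5346 for Rpl39. All 3 paralogs are at or under the 3 reads that a count of 0 allows in every single library except Rpl39l in cold 12. Rpl22l1 was expressed at 397 CPM per kilobase beside 369 CPM per kilobase for Rpl22. Without division by length Rpl22l1 was lower, at a mean of 217 CPM against 406 CPM for Rpl22, with 34.6% of the reads of the pair. Rpl36al, a copy of Rpl36a that reached the genome through its mRNA, held 40.3% of the reads of that pair. Rpl7l1, a relative of Rpl7, was low at 18.4 CPM per kilobase (mean of 47.5 CPM), against 382 CPM per kilobase for Rpl7 (mean of 425 CPM). Rps4l is annotated as a pseudogene and therefore not among the members, and it had 400 reads in all.

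**Figure D1:**
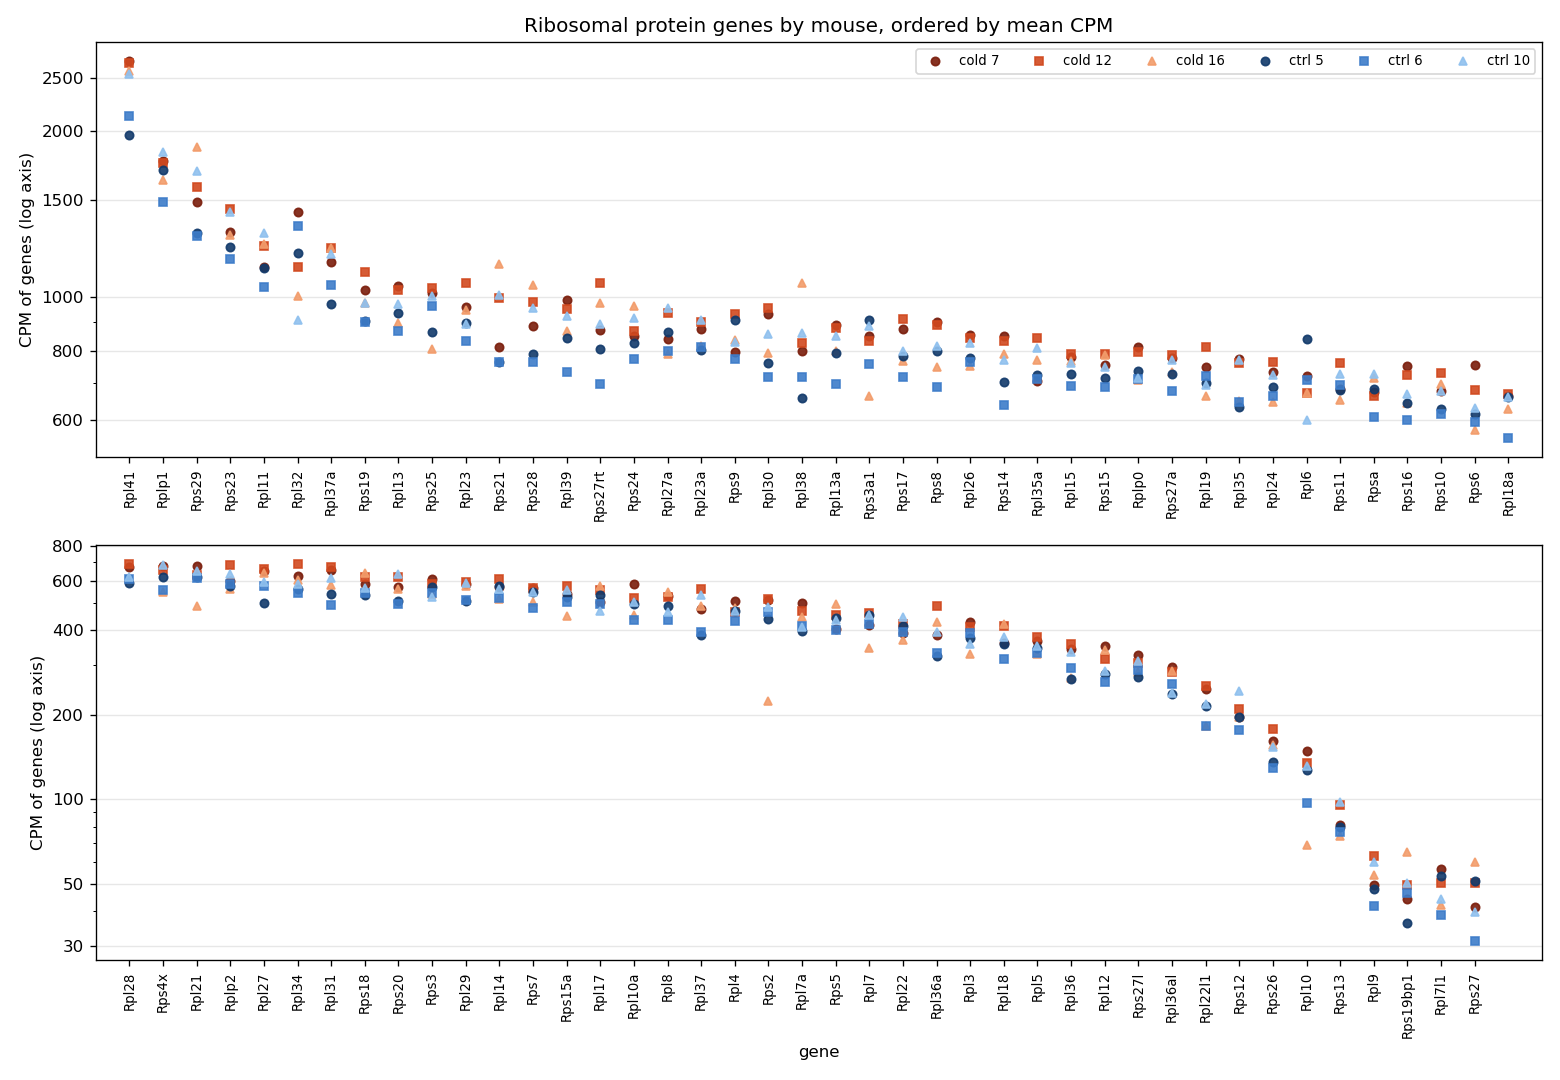
Level of each of the 83 tested genes in the 6 mice, in CPM on a log axis, with genes ordered by mean level over the mice in 2 rows. Points are single mice, cold in red tones and ctrl in blue tones. Rpl41 lies highest, at 2568 to 2676 CPM in cold mice and 1963 to 2538 CPM in ctrl mice, and Rps2 in cold 16 lies apart at 224 CPM.

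None of the 83 tested members passed the threshold of 0.05 in the cold. edgeR's quasi-likelihood test with Benjamini-Hochberg adjustment over all genes, DESeq2 and limma-voom called 0 members each. Over all 9772 genes, edgeR called 64 (0.655%). At an unadjusted p under 0.05, 5 members (edgeR), 4 (DESeq2) and 10 (limma-voom) stood out, and the share over all genes was 8.43% by edgeR. The log2 fold change, cold minus ctrl, was above 0 in 75 of the 83 and below 0 in 8. Its median was 0.13, beside 0.01 over all genes tested. Every cold mouse lay above every ctrl mouse in 15 of the 83 genes, and every cold mouse lay below in 0. Over all tested genes these shares were 5.96% above and 7.7% below. Large subunit genes had a median of 0.14 (44 above 0, 5 below) and small subunit genes a median of 0.12 (30 above 0, 3 below).

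The small excess was not even over the mice. Relative to the mean of the ctrl mice, the median log2 deviation over the tested members was 0.17 in cold 7, 0.18 in cold 12 and 0.03 in cold 16. It was -0.03 in ctrl 5, -0.08 in ctrl 6 and 0.11 in ctrl 10, so ctrl 10 lay above cold 16. The highest of the 6 levels was in cold 12 for 35 genes and in cold 7 for 24, and the lowest was in ctrl 6 for 41 and in cold 16 for 21. Without cold 16 the median log2 fold change was 0.17 and 16 members had an unadjusted p under 0.05. Without ctrl 10 these were 0.18 and 13, and without ctrl 6 they were 0.09 and 0. The number of members called stayed at 0 in each case.

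Transcript length moved with the excess. Members are short, with a median of 834 bases against 2876 bases over all genes tested. Across the 83 members, log2 length and log2 fold change had a Pearson r of -0.37 (Spearman -0.37), given as a description since genes share their libraries. The 41 shorter members had a median log2 fold change of 0.18 and the 42 longer ones 0.12. Without cold 16 the Pearson r was -0.22 (Spearman -0.23) and the medians were 0.18 for the shorter and 0.16 for the longer members. Without ctrl 5 the r was -0.26 (Spearman -0.23) and the medians were 0.14 and 0.11, so that the relation was weaker without either of these mice. Without any 1 of the other 4 mice the Pearson r lay between -0.41 and -0.32. Over the 429 tested genes of any kind under 800 bases, the median log2 deviation from the ctrl mean was 0.11, 0.13 and 0.11 in cold 7, 12 and 16 and -0.06, 0.00 and 0.09 in ctrl 5, 6 and 10. With an offset for length in the model the median over the members was 0.09, with 63 above 0, 20 below and 1 gene at p under 0.05. The mean annotated length of all gene reads was 2517 to 2549 bases in cold mice and 2544 to 2609 bases in ctrl mice, and that of member reads alone was 862 bases in cold 16, against 893 to 906 bases in the other 5 mice. The part of length in the result was not tested beyond this offset. The epithelial marker sum, higher in all 3 cold mice, also moved with the groups, and its part was not tested.

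**Figure D2:**
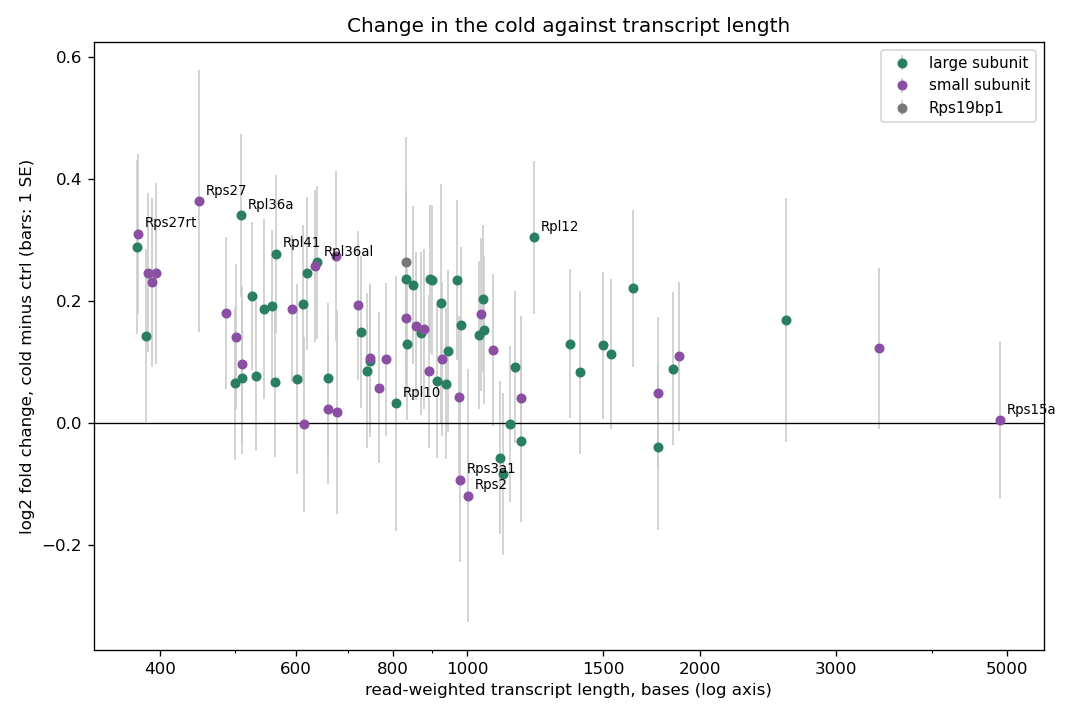
Log2 fold change (cold minus ctrl) of each tested gene against its read-weighted transcript length in bases on a log axis, with bars of 1 SE. Most points lie above 0, the shorter members have a median of 0.18 and the longer ones of 0.12, and without cold 16 these medians are 0.18 and 0.16.

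The 8 members with the smallest p came from both subunits, and all were higher on average in the cold. Rpl36a, a large subunit protein near the exit site for tRNA, had 386, 489 and 429 CPM in cold mice 7, 12 and 16, against 324, 332 and 394 CPM in ctrl mice 5, 6 and 10. The groups overlap because ctrl 10 lies above cold 7. Its mean was 435 ± 51.7 CPM in the cold and 350 ± 38.0 CPM in ctrl (SD, n = 3 each), a log2 fold change of 0.34 ± 0.13 (SE) with an edgeR adjusted p of 0.454. Rpl12, a protein at the base of the stalk, had 352, 315 and 340 CPM in cold mice, against 280, 262 and 287 CPM in ctrl mice. All cold mice lay above all ctrl mice, and the log2 fold change of 0.30 ± 0.13 (SE) had an edgeR adjusted p of 0.506. With the reads of its near-identical copy Gm10275 added, the level was 547, 507 and 471 CPM in cold mice, against 479, 423 and 470 CPM in ctrl mice. The groups overlap for this pair, with cold 16 below ctrl 5.

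Rps27rt, the single-exon gene that bears most reads of the Rps27 sequence, had 871, 1063 and 976 CPM in cold mice, against 804, 695 and 892 CPM in ctrl mice. Its log2 fold change was 0.31 ± 0.13 (SE), with ctrl 10 above cold 7. Rpl41 had 2676, 2653 and 2568 CPM in cold mice, against 1963, 2129 and 2538 CPM in ctrl mice. The cold values lay close together and just above ctrl 10, with a log2 fold change of 0.28 ± 0.13 (SE). Rpl36al had 296, 283 and 287 CPM in cold mice, against 238, 258 and 238 CPM in ctrl mice, with no overlap. Rps14 (0.26), Rpl38 (0.29) and Rps26 (0.27) complete the 8, and edgeR adjusted p lay between 0.454 and 0.637 for all of them.

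The 8 genes with a log2 fold change below 0 were close to no difference. Rps2, a small subunit protein at the mRNA entry, was lowest with -0.12 ± 0.21 (SE), and 1 mouse set this value. It had 512, 516 and 224 CPM in cold mice 7, 12 and 16, against 438, 466 and 485 CPM in ctrl mice. Cold 16 lay below every other mouse, while cold 7 and cold 12 lay above all ctrl mice. Rps3a1 (-0.09), Rpl7 (-0.08), Rpl22 (-0.06), Rpl21 (-0.04) and Rpl6 (-0.03) followed, and Rps12 and Rpl27a were nearest to 0. The edgeR adjusted p was at least 0.922 for each of the 8.

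Within the groups the tested members varied little. The median coefficient of variation was 7.91% within the cold group and 8.25% within the ctrl group. Rps2 and Rpl10 varied most among the tested members, with 25.0% each over the 6 mice, and cold 16 was lowest in both. Both have a near-identical copy that took a larger share of the reads in cold 16. With Rpl10-ps3 added, Rpl10 stood at 968, 950 and 842 CPM in cold mice and 942, 768 and 907 CPM in ctrl mice. Cold 16 was thus not lowest for this pair, while it was still lowest for Rps2 with Rps2-ps10. Rpl32, chosen after its values were seen, ran against the general order of the mice. It had 1427, 1134 and 1005 CPM in cold mice 7, 12 and 16, against 1203, 1348 and 910 CPM in ctrl mice 5, 6 and 10, so ctrl 10 was lowest and cold 7 highest. Cold 16 held the highest of the 6 levels in 8 of the 41 shorter members and the lowest in 6. Of the 42 longer members it held the highest level in 4 and the lowest in 15.

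Near-identical copies took a large part of the reads of some members. A copy was a gene with a transcript at least 97% identical to the member over at least 100 bases that covered 90% or more of either transcript. Outside the members, 364 such genes exist and 172 of them had reads, 24327 in all beside 333603 on the members. Of those reads 95.2% lay on 12 copies. Summed over copies, the level was 4313 ± 66.9 CPM in cold mice and 3748 ± 326 CPM in ctrl mice (SD, n = 3 each). How the counting divided reads that fit a gene and its copy is unknown here, so the level of each partner is uncertain while the sum of a pair is less so.

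Several copies held most reads of their pair. Rps27rt had 5359 reads and Rps27 had 272, and the copy's share was 95.5%, 95.5% and 94.2% in cold mice and 94.0%, 95.7% and 95.7% in ctrl mice. The coding sequences are identical over all 255 bases. Rpl10-ps3, annotated as protein-coding, had 4713 reads against 721 on Rpl10, whose protein lies near the peptidyl transferase centre, and all 645 coding bases are identical. Rpl9-ps6 had 4637 reads against 322 on Rpl9, with 1 of 579 coding bases differing. Rps13-ps1 had 2916 against 520 on Rps13 (2 of 456 bases), Rps26-ps1 had 2565 against 927 on Rps26 (2 of 348) and Rpl36-ps12 had 2294 against 1909 on Rpl36 (3 of 318). The share of reads on the copy was close to even over the mice in the Rpl9, Rps13 and Rps26 pairs, between 71.6% and 94.2% in all 6.

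The following pairs of 60 coding bases, from the GENCODE M21 transcripts and read 5′ to 3′, show how little separates a member from its copy. Capitals mark each base that differs between the partners. Rpl9 lies on chromosome 5 and Rpl9-ps6 on chromosome 19, Rpl36 on chromosome 17 and Rpl36-ps12 on chromosome 6, Rps13 on chromosome 7 and Rps13-ps1 on chromosome 8.
Rpl9: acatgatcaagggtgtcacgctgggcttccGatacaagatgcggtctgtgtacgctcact
Rpl9-ps6: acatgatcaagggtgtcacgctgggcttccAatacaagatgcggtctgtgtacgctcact
Rpl36: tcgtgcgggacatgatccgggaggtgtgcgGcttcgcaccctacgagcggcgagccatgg
Rpl36-ps12: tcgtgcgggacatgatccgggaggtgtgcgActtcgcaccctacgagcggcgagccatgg
Rps13: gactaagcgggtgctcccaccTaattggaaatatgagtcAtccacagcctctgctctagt
Rps13-ps1: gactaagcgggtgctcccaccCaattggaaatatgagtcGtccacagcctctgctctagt

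Cold 16 divided the reads of some pairs differently from the other 5 mice. The Rps2 pair had 71.3% of its reads on the copy Rps2-ps10 in cold 16, against 43.1% to 50% in the other 5 mice. The level of the pair was 1023, 969 and 778 CPM in cold mice 7, 12 and 16 and 824, 818 and 905 CPM in ctrl mice. Cold 16 was thus lowest for the pair too, but by less than for Rps2 alone. The Rpl36 pair had 64.8% on its copy in cold 16 (51.3% to 56.2% elsewhere), the Rpl37 pair 36.4% (24.4% to 28.4%) and the Rpl10 pair 91.8% (84.6% to 87.4%). In the Rpl12 pair the share of the copy Gm10275 was lowest in cold 16, at 27.9% (35.8% to 41.4% elsewhere). With the reads of copies added to the members, 77 of 82 genes lay above 0 with a median log2 fold change of 0.14, and 0 were called.

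**Figure D3:**
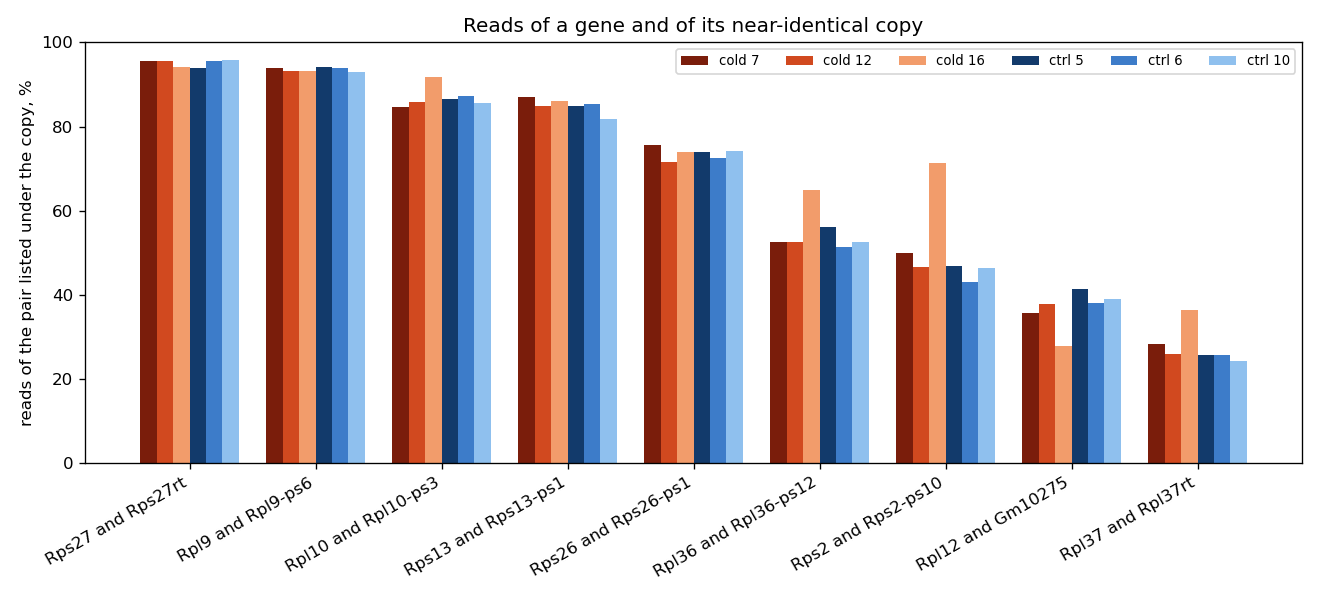
Share of the reads of a gene and its near-identical copy that are listed under the copy, in percent, for 9 pairs in the 6 mice. Bars are single mice, and cold 16 stands above the others in the Rps2 pair (71.3%), the Rpl36 pair (64.8%) and the Rpl37 pair (36.4%).

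Most members were read as 1 main transcript. The 86 genes had 441 annotated transcripts with reads. In the 83 genes with at least 200 reads, the most-read transcript was of the protein-coding type in all 83 and took a median of 85.6% of the gene's reads. It took 90% or more in 30 genes and under 50% in 3. A second transcript took 10% or more in 35 genes, and in 26 of these it was a protein-coding one too.

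The largest second shares were in Rpl17 (49.97%), Rps24 (42.2%), Rpl18 (37.1%), Rps28 (31.8%), Rpl34 (27.9%), Rpl8 (25.0%), Rps19 (24.3%) and Rpl22 (22.8%). In all of these but Rps24 the coding sequences of the first and the second transcript are identical. Over the 26 genes with a protein-coding second transcript of 10% or more, the coding sequences of the first and second transcript were identical in 21 and differed in 5, namely Rps24, Rpl19, Rpl22l1, Rpl10a and Rpl30. They have 393 and 402 coding bases in Rps24, 591 and 585 in Rpl19, 366 and 369 in Rpl22l1, 654 and 651 in Rpl10a, and 348 and 285 in Rpl30. In Rpl17 the second transcript, Rpl17-202, took 54.4%, 45.1% and 49.2% in cold mice 7, 12 and 16, against 49.8%, 52.4% and 50.8% in ctrl mice 5, 6 and 10. The groups overlap and both transcripts stood near even in each mouse.

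Rps24, a small subunit protein whose mRNA is known for short alternative exons just before its end, had the largest second share among these 5. The 3 transcripts over 5% of its reads share the 30 coding bases shown in lower case, and capitals mark the remaining coding bases with the stop codon. The sequences are from the GENCODE M21 transcripts on chromosome 14.
Rps24-202: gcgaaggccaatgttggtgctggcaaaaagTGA
Rps24-210: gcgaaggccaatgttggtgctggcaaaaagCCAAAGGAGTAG
Rps24-205: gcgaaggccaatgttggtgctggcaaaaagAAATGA

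The shortest ending, Rps24-202, took 41.6%, 39.7% and 36.8% of the gene's reads in cold mice 7, 12 and 16, against 48.6%, 42.4% and 48.6% in ctrl mice 5, 6 and 10. All cold mice lay below all ctrl mice in this share. The longest ending, Rps24-210, took 45.8%, 44.7% and 47.5% in cold mice, against 37.7%, 44.8% and 34.3% in ctrl mice. Here ctrl 6 lies among the cold mice. In CPM of all reads, Rps24-210 stood at 390, 387 and 458 in cold mice and 311, 346 and 314 in ctrl mice, a log2 fold change of 0.37 ± 0.15 (SE) with an edgeR adjusted p of 0.577. Rps24-205 took 10.2%, 10.8% and 10.2% in cold mice and 9.95%, 7.54% and 12.5% in ctrl mice. The gene did not pass the test of transcript usage.

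Transcript usage was tested in 62 members by the edgeR test of differences between transcripts of a gene, with Simes p per gene. It called 0 members and 0 of all 2624 genes tested (0%), and 0 members had an unadjusted p under 0.05, against 0.953% of all genes. The smallest p belonged to Rpl13a, Rps27l, Rpl18, Rpl10a, Rpsa and Rpl28. As single transcripts, 221 of the members' transcripts were tested and edgeR and DESeq2 each called 0, while edgeR called 0.381% of all 12325 transcripts. At an unadjusted p under 0.05 there were 29 by edgeR, all 29 higher in the cold, and 14 by DESeq2, beside 6.87% of all transcripts by edgeR. Of those 847 transcripts of any gene, 487 were higher in the cold. Among all 221 member transcripts 188 lay above 0, and since they share libraries and in part genes, the common sign is a description. Without 1 mouse the 29 became 12 to 43.

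The smallest p among transcripts was that of Rpl13a-205, annotated as a target of nonsense-mediated decay, in the gene of a large subunit protein that carries 4 snoRNA genes. It had 55.1, 68.7 and 102 CPM in cold mice, against 37.3, 42.5 and 52.9 CPM in ctrl mice, with no overlap. Its log2 fold change was 0.78 ± 0.23 (SE) with an edgeR adjusted p of 0.265. Without cold 7 the edgeR adjusted p was 0.0351, and without any other single mouse it lay between 0.263 and 0.711. Cold 16 had the highest level, and without this mouse the log2 fold change was 0.52 with an edgeR adjusted p of 0.533. Rpl10a-208, a retained intron transcript, had 49.6, 37.7 and 47.2 CPM in cold mice, against 27.7, 26.1 and 28.2 CPM in ctrl mice. Its log2 fold change was 0.72 ± 0.22 (SE) with an edgeR adjusted p of 0.343.

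A small part of the reads fell on transcripts with no annotated coding region. Pooled over the members, retained intron and processed transcript types took 4.02%, 4.17% and 6.76% of reads in cold mice 7, 12 and 16, against 4.43%, 4.20% and 4.51% in ctrl mice 5, 6 and 10. Cold 7 and cold 12 are the lowest of the 6 and cold 16 is far the highest. The cold mean exceeded the ctrl mean by 0.60 percentage points, and without cold 16 the difference was -0.29. Retained introns alone took 2.41%, 2.57% and 4.25% in cold mice and 2.79%, 2.54% and 2.75% in ctrl mice. Transcripts annotated for nonsense-mediated decay took 1.02%, 1.11% and 1.81% in cold mice and 1.07%, 1.06% and 1.13% in ctrl mice.

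The higher share in cold 16 ran through many members and was seen outside them. Of the 62 members with at least 10 non-coding reads, 41 had their largest non-coding share in cold 16, and of the 79 with several transcripts, 57 had the smallest share of the main transcript there. Over all other protein-coding genes the pooled non-coding share was 4.63%, 5.05% and 6.30% in cold mice and 5.09%, 4.81% and 5.14% in ctrl mice. Nuclear genes of oxidative phosphorylation, which are similarly short, had 4.20%, 4.58% and 7.66% in cold mice and 4.52%, 4.34% and 4.53% in ctrl mice. What sets cold 16 apart was not tested.

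The share differed widely between members. It was under 1% in 30 of the 83 genes with at least 200 reads, 10% or more in 18, and 2.60% at the median. The largest shares were in Rps27 (37.5% of its 272 reads), Rpl7a (31.0%), Rps18 (22.0%), Rpl24 (18.8%), Rpl11 (18.3%), Rpl5 (17.7%), Rps27l (15.3%) and Rpl23a (13.6%). The value of Rps27 depends on the division of reads with Rps27rt. That copy held 5359 reads with the same coding sequence and 0 non-coding reads, against 102 non-coding reads on Rps27. The 30 members with a snoRNA gene in their span had a median of 4.64%, against 2.40% in the 53 without, both with ranges starting at 0%. Rpl7a, Rpl5 and Rpl23a hold 3 snoRNA genes each, while Rps27, Rps18, Rpl24, Rpl11 and Rps27l hold none. Rpl4, with 5 snoRNA genes, had a share of 0.25%.

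These transcripts lie mostly in exons of the coding one. Over the 44 non-coding transcripts with at least 100 reads, a median of 65.1% of the bases lay in exons of the gene's most-read transcript, with a range of 12.8% to 93.3%. Rpl11-204, the processed transcript that made up nearly all of the Rpl11 share with 1279 reads, has 57.1% of its bases there. Rpl23a-202 has 84.01% and Rpl24-204 has 83.1%. How the counting assigned a read that ends inside such shared exons is not given in the sources used here.

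Rpl7a, a large subunit protein, had the smallest p for non-coding share. Its share was 27.9%, 30.6% and 52.0% in cold mice 7, 12 and 16, against 23.9%, 30.6% and 24.6% in ctrl mice 5, 6 and 10. Cold 16 is highest by far and ctrl 6 lies beside cold 12. Rpl5, which carries 5S rRNA into the ribosome and with Rpl11 restrains Mdm2, had 17.3%, 16.0% and 29.96% in cold mice, against 15.7%, 13.7% and 18.05% in ctrl mice. Rpl11 had 16.3%, 17.0% and 24.3% in cold mice, against 16.4%, 17.4% and 18.9% in ctrl mice. Both overlap between groups, and both are highest in cold 16.

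The edgeR test of non-coding against coding reads within a gene called 0 of 62 members and 0 of all 3386 genes tested (0%). At an unadjusted p under 0.05 it had 6 members, against 4.55% of all genes. Besides Rpl7a these were Rpl37a, Rps14, Rpl18, Rpl35 and Rps27l, and the adjusted p was 0.986 for each. Rps27l, a paralog of Rps27 known as a target of p53, had 16.5%, 13.1% and 27.0% in cold mice, against 14.1%, 12.4% and 13.4% in ctrl mice, overlapping through cold 12. The non-coding transcripts of Rpl37a, Rps14 and Rpl35 held 34, 11 and 21 reads in all, which is few for such a test.

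**Figure D4:**
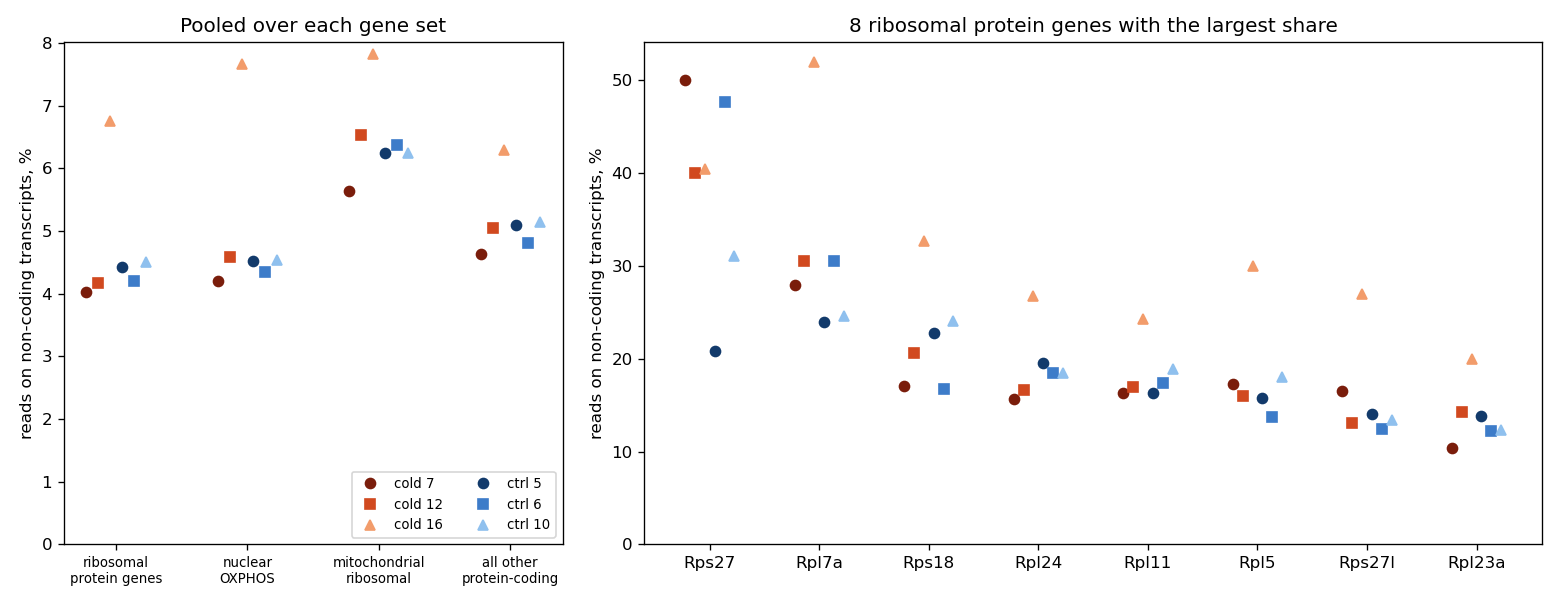
Share of reads on transcripts with no annotated coding region, in percent, pooled over 4 gene sets (left) and in the 8 members with the largest share (right), 1 point per mouse. Cold 16 lies at 6.76% for the ribosomal protein genes, with the other 5 mice between 4.02% and 4.51%. The share of Rps27 depends on the division of its reads with the copy Rps27rt.

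Other parts of the protein synthesis machinery were set beside the members. The lists differ in median length, with 1607 bases for further TOP genes, 2491 for biogenesis, 3488 for control and 1355 for mitochondrial ribosomal genes. Members had 834 bases and the oxidative phosphorylation genes, also given below, had 794. The part of length in the differences between lists was not tested. Of 20 further genes with TOP mRNAs, such as elongation factors and Tpt1, all 20 were tested, 0 were called and 13 lay above 0, with a median log2 fold change of 0.03. Their summed level was 9594 ± 625 CPM in cold mice and 9428 ± 393 CPM in ctrl mice (SD, n = 3 each). Fau, which encodes the small subunit protein eS30 fused to a ubiquitin-like protein, had the smallest p among them. It had 935, 953 and 934 CPM in cold mice, against 782, 791 and 884 CPM in ctrl mice, with no overlap and a log2 fold change of 0.22 ± 0.12 (SE, edgeR adjusted p of 0.669).

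Of 32 ribosome biogenesis genes 31 were tested, 0 were called and 21 lay above 0, with a median of 0.10. Gnl3, the nucleolar GTPase nucleostemin, had 55.2, 43.6 and 47.3 CPM in cold mice, against 24.5, 27.6 and 34.4 CPM in ctrl mice. All cold mice lay above all ctrl mice, and the log2 fold change of 0.75 ± 0.22 (SE) had an edgeR adjusted p of 0.181. Polr1c, a subunit shared by RNA polymerases I and III, had 31.7, 26.0 and 28.1 CPM in cold mice, against 20.3, 20.2 and 17.7 CPM in ctrl mice, again with no overlap (edgeR adjusted p of 0.534).

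Among 20 genes that control the translation of ribosomal protein mRNAs, 0 were called, with 9 above 0 and 11 below. All cold mice lay above all ctrl mice in 2 of the 20 and below in 2, beside 5.96% above and 7.7% below over all tested genes. Eif4ebp1, the translation repressor that mTORC1 inactivates, had 729, 928 and 824 CPM in cold mice, against 1129, 944 and 1162 CPM in ctrl mice. All cold mice lay below all ctrl mice, with a log2 fold change of -0.36 ± 0.13 (SE) and an edgeR adjusted p of 0.395. Mlst8, a subunit of mTORC1 and mTORC2, had 12.4, 17.6 and 15.3 CPM in cold mice, against 7.47, 10.5 and 9.71 CPM in ctrl mice. All cold mice lay above all ctrl mice, with a log2 fold change of 0.74 ± 0.34 (SE) and an edgeR adjusted p of 0.557. Eif4e, the cap-binding protein that Eif4ebp1 binds, had 66.2, 64.6 and 49.8 CPM in cold mice, against 29.9, 53.8 and 45.9 CPM in ctrl mice, overlapping through cold 16 (edgeR adjusted p of 0.552). Rps6kb1, the S6 kinase, had 57.9, 59.5 and 58.8 CPM in cold mice, against 45.9, 51.5 and 47.7 CPM in ctrl mice, with no overlap (edgeR adjusted p of 0.718). Pdcd4, a repressor of translation that S6 kinase marks for breakdown, had 132, 141 and 121 CPM in cold mice, against 148, 149 and 154 CPM in ctrl mice, with all cold mice below all ctrl mice (edgeR adjusted p of 0.843). Of 78 mitochondrial ribosomal protein genes 77 were tested, 0 were called and 47 lay above 0, with a median of 0.06. Of 73 nuclear genes of oxidative phosphorylation 72 were tested, 0 were called and 54 lay above 0, with a median of 0.07. At an unadjusted p under 0.05 edgeR had 0 of the further TOP genes, 2 biogenesis genes, 3 control genes, 2 mitochondrial ribosomal genes and 3 oxidative phosphorylation genes. The share over all genes tested was 8.43%.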

How the data were processed

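The authors deposited raw read counts per transcript, 12 files, 2 for each of the 6 mice. Reads were aligned with minimap2 to GRCm38, per the submitters' processing notes. Not given in the sources used here are the aligner's version, the program that counted, whether it used strand, and what it did with reads fitting more than 1 transcript. The 2 files of a mouse differed by about the sampling noise (chi-square per degree of freedom 1.02 to 1.06) and were summed to 1 sample. Of 61729 transcript identifiers, 61538 matched GENCODE M21, and these were summed to 23492 genes.

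Tests across genes and across transcripts used edgeR 4.0.16 in R 4.3.3 (quasi-likelihood test, TMM, filterByExpr with a minimum count of 10, Benjamini-Hochberg over everything tested, threshold 0.05). Transcript usage and the non-coding class (at least 10 reads per class) used diffSpliceDGE. DESeq2 1.42.0 and limma 3.58.1 were alternatives. Copies were found with BLAST 2.17.0. CPM are relative to gene reads for genes and to all reads for transcripts. In the shallowest library 1 read is worth 1.38 CPM and a count of 0 allows 4.14 CPM, which covers counting error only.

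Named by rule are the 8 genes with the smallest p, the 8 highest CPM per kilobase, the 4 lowest in mean CPM, the 8 largest non-coding and second-transcript shares, the 6 smallest p of usage and of class, and paralogs. Any other gene named was picked with its values in view. The members, gene lists and tests were chosen with earlier results of these data known.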

Additional observations from a re-analysis of the deposited data

How the results depend on the processing

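Of the members, 0 were called under every alternative of normalization, filter, tool, file, transcript type, length offset and left-out mouse. The median log2 fold change of 0.13 lay between 0.09 and 0.18 when a mouse was left out, and under every alternative it moved by less than the spread between mice (SD 0.09). The summed difference of 4157 CPM, cold minus ctrl, lay between 2770 and 5911 CPM without 1 mouse and rose to 5098 CPM without mitochondrially encoded genes. The non-coding difference lay between -0.29 and 1.08 percentage points. Called transcripts numbered 0, and 0 to 1 without 1 mouse, the 1 being Rpl13a-205 without cold 7. Members with an unadjusted p under 0.05 numbered 5, and 3 with no filter, 10 with limma-voom, 3 from X2 files, 8 from protein-coding transcripts, 1 with the length offset, and 0 to 16 without 1 mouse. With both the length offset and cold 16 left out, alternatives added after seeing the data like that of summed copies, there were 0. Of 755 log2 fold changes of 42 named members under alternatives, 729 kept their sign and 26 did not, and 0 were called. No paired analysis was possible because the mice of the 2 groups carry different numbers. With 3 mice a group, differences of the size seen here (log2 near 0.13, SE near 0.13) lie within the error of a single gene.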
